A study of Homo sapiens with 18 samples.

Results

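RNA of 8 genes of lipid synthesis and uptake was examined for peaks of crosslinked MYC: FASN, SCD, SCARB1, ACLY, ACACA, HMGCS1, SREBF1 and SREBF2. The genes were chosen from a list of fatty acid and cholesterol genes, and their peaks are those that overlap the RefSeq span of the gene by at least 1 bp. The choice was made with the number of peaks, their spread along the gene, their rank by fold enrichment and their overlap between alleles already known, so these values are given as a description with no test. The 8 genes held 28 of the 2340 peaks in the 3 deposited lists, and all 28 came from the list of wild-type MYC.

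The peaks were measured by eCLIP, in which ultraviolet light links a protein to the RNA it touches in living cells and the RNA that comes down with the protein is sequenced. They were made from U2OS, an osteosarcoma line of human origin, with the endogenous MYC knocked out and a FLAG-tagged MYC under a doxycycline-inducible (Tet-On) promoter, grown in medium with fetal bovine serum. The 3 groups used here carried wild-type MYC (WT) or one of the mutants labelled 3A and 7A, each given doxycycline at 1 µg/mL for 24 h and precipitated with an antibody to FLAG. All 3 share the knockout, the inducible transgene and the doxycycline. The residues changed in the mutants are not named in the labels, nor is it stated whether a line is 1 clone. Each of these groups had 2 immunoprecipitated libraries in the labels but 1 peak list in the files, so no value has a replicate check. None of the 3 lists is of cells given PBS in place of doxycycline, so the background without tagged MYC is not known.

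Fatty acid synthesis starts when ATP citrate lyase (ACLY) cleaves citrate to cytosolic acetyl-CoA. Acetyl-CoA carboxylase (ACACA) turns this into malonyl-CoA, fatty acid synthase (FASN) builds palmitate from both, and stearoyl-CoA desaturase (SCD) puts a double bond into the saturated product. HMG-CoA synthase (HMGCS1) makes the precursor of mevalonate for cholesterol, SCARB1 is a cell-surface receptor that takes up cholesterol esters from high-density lipoprotein, and SREBF1 and SREBF2 encode the SREBP transcription factors that switch on the genes of both pathways when sterols are low. MYC is best known as a DNA-binding transcription factor that promotes growth and anabolic metabolism, and here it was mapped on RNA.

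The WT list held 2149 peaks, 3A 103 and 7A 88, and all 3 had 2 peaks in MYC itself, which the cells express from the transgene. Each peak carries the authors' fold enrichment and −log10 q, used here only within a list. The WT medians were 8.11 for fold enrichment, 17.8 for −log10 q and 165 bp for width. Sequencing depth and the RNA levels of the genes are unknown.

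Of the 8 genes, 5 held a WT peak, against 6.78% of all 20056 protein-coding genes and 6.33% of the 10960 that lie in the same range of length. Since the genes were picked with their peaks in view, nothing is read from this difference. FASN held 11 peaks, SCD 8, SCARB1 6, SREBF1 2 and ACLY 1, while ACACA, HMGCS1 and SREBF2 held none. FASN, SCD and SCARB1 thus carried 25 of the 28 peaks (89.3%). Such numbers are rare in the list: 957 of the 1359 protein-coding genes with a WT peak (70.4%) had a single one, and 24 genes, 0.12% of all protein-coding genes, had 6 or more. Only PKM, the pyruvate kinase gene, exceeded FASN, with 12 peaks.

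**Figure D1:**
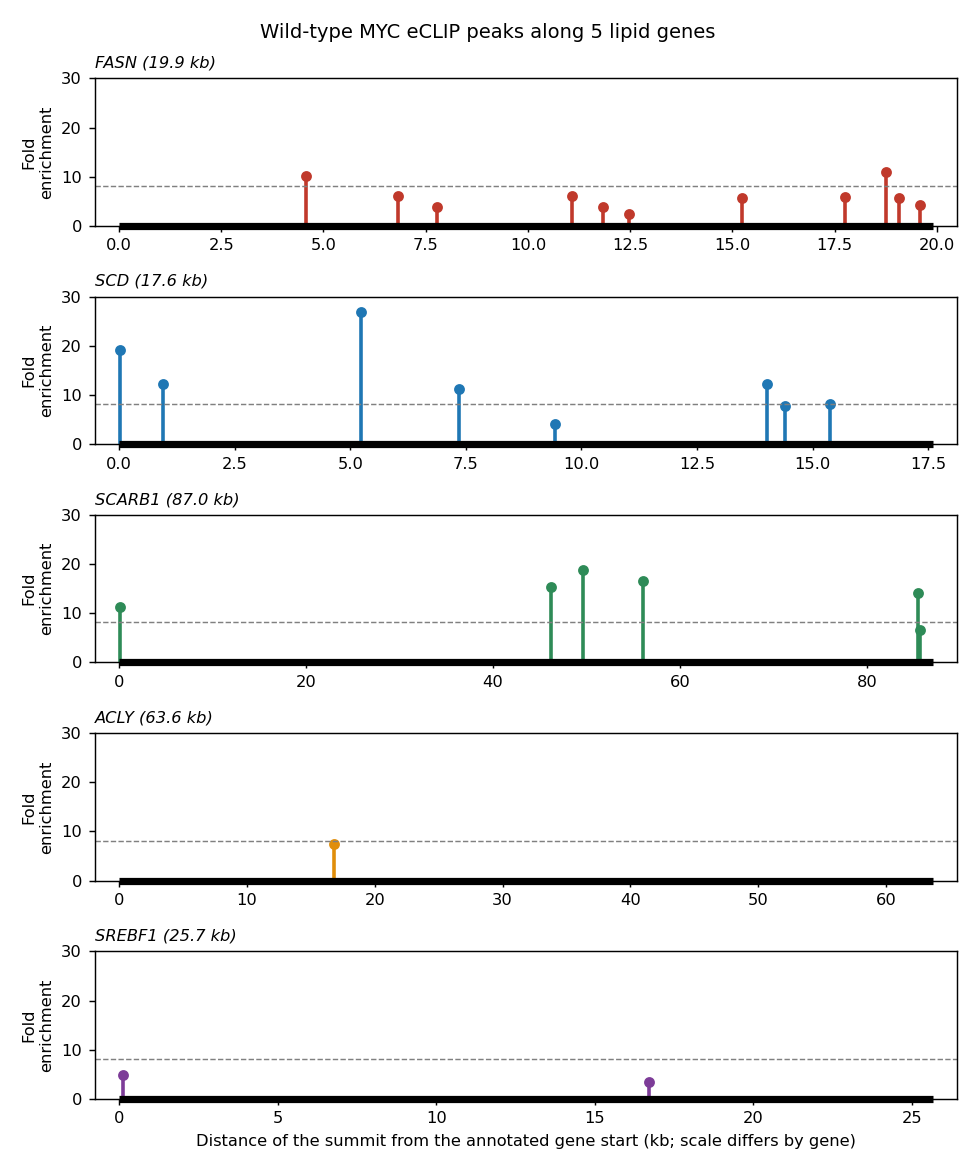
Fold enrichment of each WT peak (vertical axis, authors' value) against the distance of its summit from the annotated gene start in kb (horizontal axis, with its own scale for each gene) in the 5 lipid genes that held a peak; the black bar is the gene span and the dashed line the median of the WT list, 8.11. FASN shows 11 peaks with none in the first 4570 bp, SCD 8 peaks starting 30 bp from the gene start, and SCARB1 a peak at its start, a middle group of 3 and a pair near its end.

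At the start of SCD the first peak ran across the annotated gene start, on chromosome 10 from 100347173 to 100347553, with 60 of its 381 bp upstream of the start at 100347233. The 250 bases before the start, chr10:100346983-100347232 on the plus strand, are shown because SCD was the only one of the 6 genes with a RefSeq promoter window (250 bases before to 50 after a start) in which a WT peak met that window. Capitals mark the 60 bases that lie inside the peak (RefSeq sequence, GRCh38.p14).
SCD promoter: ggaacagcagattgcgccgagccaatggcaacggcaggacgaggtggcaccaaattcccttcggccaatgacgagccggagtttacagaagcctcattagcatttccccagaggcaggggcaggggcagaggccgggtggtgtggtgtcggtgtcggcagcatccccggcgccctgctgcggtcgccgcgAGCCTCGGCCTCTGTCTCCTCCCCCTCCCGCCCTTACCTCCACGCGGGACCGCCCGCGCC
Across all promoter windows, 395 of 35116 (1.12%) met a WT peak on the same strand. The whole stretch is 68% G and C, against a median of 58% and an upper quartile of 68% over the same 250 bases of all windows. The capital part is 76.7% G and C, with no value for the same 60 bases of other windows to set beside it. The GC box GGGCGG, searched on both strands, occurred on the opposite strand with its first base 33 and 11 bases before the start, both in the capitals. Anywhere in the window, and not only in the part next to the start, it is found in 45.0% of all windows. The CCAAT box, searched as CCAAT on both strands, began 229 and 186 bases before the start, both outside the capitals, and is found in 34.6% of all windows. The E-box CACGTG, the DNA motif of MYC, was in none of the 10 windows, which cover 6 of the 8 genes, and in 7.26% of all windows. With a share this low, nothing is read from its lack. FASN and SCARB1 have no window and were not searched. These matches are descriptions of the letters and not sites.

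FASN, the enzyme that assembles palmitate, spans 19.9 kb on chromosome 17 from 82078338 to 82098236, and all 11 of its peaks lay on the minus strand. The annotation gives no strand for FASN, so the strand of the peaks was taken as that of the gene. From the start onward the first 3 summits, at 4570, 6824 and 7782 bp, had fold enrichments of 10.0, 6.15 and 3.74. The next 3, at 11076, 11838 and 12485 bp, had 5.97, 3.80 and 2.38. These 6 peaks fall into a pair of groups separated by an interval of 3114 bp. A single peak at 15244 bp had a fold enrichment of 5.73 and another at 17752 bp had 5.89. The last 3, at 18767, 19067 and 19596 bp, had 10.9, 5.68 and 4.23 and were only 74 and 82 bp apart from edge to edge. Joining peaks at most 200 bp apart left 9 regions in FASN. The small nucleolar RNA gene SNORD134, which lies inside FASN from 82089960 to 82090140, held no peak, and the nearest edge of a FASN peak was 206 bp away.

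The FASN peaks were low in fold enrichment and high in −log10 q. Their fold enrichments ranged from 2.38 to 10.9 with a median of 5.73, and only 2 of 11 exceeded the list median. Their −log10 q values ranged from 10.9 to 71.4 with a median of 36.7, and 10 of 11 exceeded the list median. By rank in the list of 2149, the median FASN peak stood at 1625 by fold enrichment and at 403 by −log10 q, and each of the 11 ranked higher by −log10 q. Fold enrichment below and −log10 q above the list medians was seen for 8 of 11 FASN peaks, for 299 of all WT peaks (13.9%) and for none of the SCD or SCARB1 peaks. By gene medians this was not particular to FASN. PKM, EEF2 and ACTB, also among the genes with 6 or more peaks, had median fold enrichments of 4.44, 4.24 and 3.77. Their median −log10 q values were 29.3, 28.9 and 64.1. The highest peak by both measures was that at 18767 bp, on chromosome 17 from 82079326 to 82079544, which ranked 611 by fold enrichment and 122 by −log10 q.

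SCD, the desaturase, spans 17.6 kb on chromosome 10 from 100347233 to 100364826 on the plus strand, and its 8 peaks included the lipid genes' highest. The start peak shown above reached 19.2 in fold enrichment and 92.0 in −log10 q, ranking 107 and 72 in the list. Its summit lay 30 bp after the annotated start, and a further peak with a summit at 944 bp had a fold enrichment of 12.2. The third peak, with its summit at 5223 bp (chromosome 10, 100352381 to 100352522), reached 26.9, the highest fold enrichment of all 28, and ranked 24 of 2149. It was also among the narrowest, at 142 bp. In the middle of the gene the peaks at 7351 and 9428 bp had fold enrichments of 11.2 and 4.02. The latter was the weakest SCD peak, with a −log10 q of 6.12. Toward the end, peaks at 14007, 14398 and 15374 bp had fold enrichments of 12.3, 7.71 and 8.22, the first with a −log10 q of 60.4. Strength therefore did not follow a single direction along the gene, and the highest and lowest fold enrichments of SCD differed 6.70 times, more than the 4.59 times in FASN and 2.82 times in SCARB1.

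SCARB1, the lipoprotein receptor, spans 87.0 kb on chromosome 12 from 124776856 to 124863864, and its 6 peaks, all on the minus strand, were few for its length but high in fold enrichment. Its strand was also taken from its peaks. The start peak, from 124863442 to 124863865, had its summit 101 bp into the gene, extended 1 bp beyond the annotated start and was enriched 11.3 times with a −log10 q of 59.5. After an interval of 45735 bp without a peak came a middle group at 46251, 49569 and 56066 bp, with fold enrichments of 15.4, 18.8 and 16.5 and −log10 q of 27.8, 33.3 and 30.3. These 3 peaks resembled each other in both measures and in width, at 204, 173 and 172 bp. A pair near the end, 66 bp apart, had 14.0 and 6.67. In contrast to FASN, 4 of the 6 SCARB1 peaks ranked higher by fold enrichment than by −log10 q. The median SCARB1 fold enrichment was 14.7, and 5 of 6 peaks exceeded the list median in each measure.

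**Figure D2:**
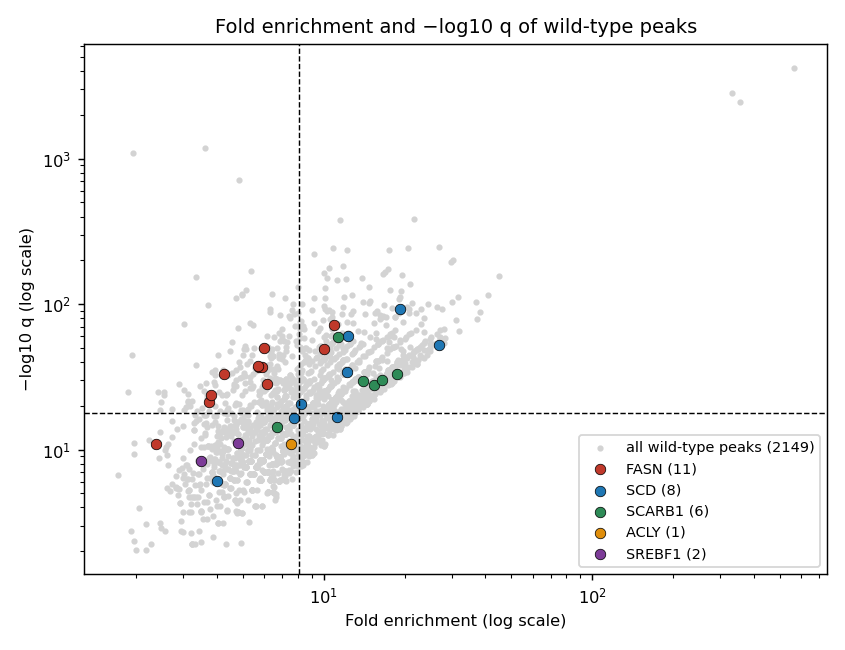
Fold enrichment (horizontal, log scale) against −log10 q (vertical, log scale) of each of the 2149 WT peaks (grey) with the peaks of 5 lipid genes in colour; dashed lines are the medians of the list, 8.11 and 17.8. FASN peaks lie mostly left of the vertical line and above the horizontal one, 4 SCARB1 peaks lie to the right along the lower edge of the cloud, and the SREBF1 peaks and the ACLY peak lie below both medians.

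SREBF1 and ACLY held weaker peaks. SREBF1 spans 25.7 kb on chromosome 17 from 17811334 to 17836986 on the minus strand. Its start peak, from 17836761 to 17836933, had its summit 111 bp into the gene and was enriched 4.80 times with a −log10 q of 11.1. Further in, a peak from 17820046 to 17820455 with its summit at 16722 bp had values of 3.49 and 8.35. The microRNA genes MIR33B and MIR6777 lie inside SREBF1, and neither held a peak. Their nearest WT peak edges were 6115 and 6501 bp away. ACLY held a single peak (chromosome 17, 41913676 to 41913801) that was enriched 7.52 times with a −log10 q of 10.9. Its summit lay 16802 bp from the outermost annotated start of ACLY and 5279 and 5208 bp from the pair of start sites in the promoter table. All 3 of these peaks were below both list medians.

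ACACA, HMGCS1 and SREBF2 had no peak in any list, and none appeared when their spans were extended by 500 bp on both sides. ACACA, the carboxylase that supplies FASN, is the longest of the 8 genes at 322 kb, and its nearest WT peak lay 1353 kb away. The nearest WT peak to HMGCS1, of the mevalonate route, was 1496 kb away, and that to SREBF2, the SREBP gene linked mainly to sterol synthesis, was 94.5 kb away. MIR33A, inside SREBF2, held no peak either. FASN and SCD are the shortest of the 8 and had the most peaks. Since the number of peaks entered the choice of genes, nothing is read from this about length.

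Peaks per length set FASN and SCD apart from SCARB1. FASN had 0.553 peaks per kb of gene, with 13.8% of its span under a peak. In SCD the values were 0.455 per kb and 11.1%, in SCARB1 0.0690 per kb and 1.74%, in SREBF1 0.0780 per kb and 2.27%, and in ACLY 0.0157 per kb and 0.198%. The spans include introns, since the annotation used here has no exons, so these densities are per kb of gene and not of mature message. Among the 24 genes with 6 or more WT peaks FASN ranked 7, SCD 9 and SCARB1 last by peaks per kb. Peaks of the lipid genes were also wide, with a median of 212.5 bp, and 23 of 28 exceeded the list median of 165 bp. Over 300 bp were 8 of the 28 (28.6%) and 263 of the 2149 (12.2%). The widest were 440 bp in FASN, 424 bp in SCARB1 and 418 bp in SCD.

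Summits of these genes lay both at the gene start and along the gene. Of the 28 summits, 3 (10.7%) lay within 500 bp of the start, 1 each in SCD, SCARB1 and SREBF1. By gene, this is 3 of the 5 with a peak. Of the 1951 WT summits in protein-coding genes, 841 (43.1%) lay that close. With each gene cut into 5 equal parts from start to end, FASN had 0, 3, 2, 2 and 4 summits, SCD 2, 1, 2, 1 and 2, and SCARB1 1, 0, 2, 1 and 2. The 3 middle parts held 16 of the 28 summits (57.1%), and 413 of the 1601 WT summits in protein-coding genes of at least 5 kb (25.8%). A gene with many peaks must have most of them away from a narrow start window, so the list is not a matched reference. FASN, SCD and SCARB1 alone gave 25 of the 28 summits. Spread along the gene also entered the choice of genes, so nothing is read from these shares. Among the 24 genes with 6 or more peaks, 16 had a summit within 500 bp of the start and FASN was 1 of the 8 that did not. At 4570 bp, its first summit was the farthest from the start of all 24, ahead of EEF1A2 at 1362 bp, and that of SCD, at 30 bp, was the nearest. Start distances depend on the outermost annotated start, which need not be the one used in these cells.

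**Figure D3:**
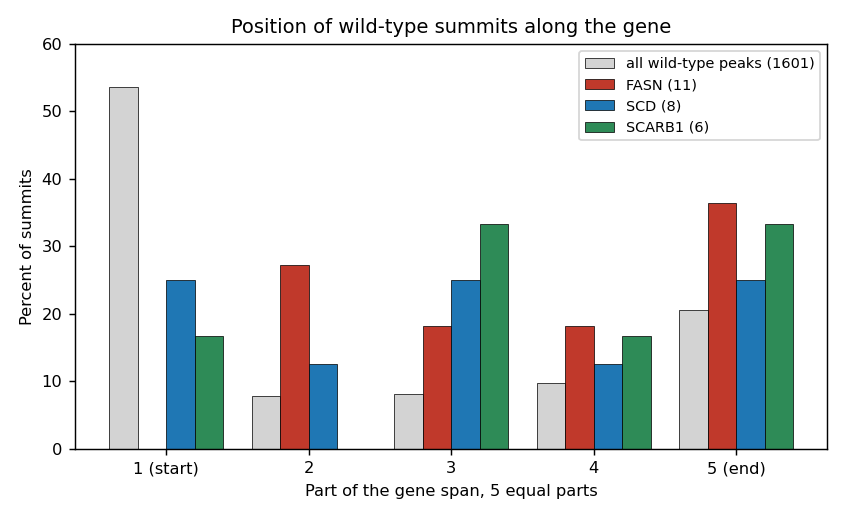
Percent of WT summits (vertical axis) in each of 5 equal parts of the gene span from start to end (horizontal axis), for 1601 summits in protein-coding genes of at least 5 kb (grey) and for FASN (11 summits), SCD (8) and SCARB1 (6). The first part holds 53.6% of all summits and none of FASN, whose last part holds 36.4%.

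No other gene had 11 peaks, and PKM was the only one within 1 of FASN, with 12 peaks at 0.369 per kb, a median fold enrichment of 4.44 and a median −log10 q of 29.3. FASN and PKM ranked 18 and 22 of the 24 genes by median fold enrichment, and 8 and 12 by median −log10 q. PKM differed in having a first summit at 476 bp and in holding 2 peaks of 3A and 1 of 7A. SCD shared its number of 8 with EIF4G1, an initiation factor gene, EEF1A2, an elongation factor gene, and HSP90AB1, a chaperone gene. Their median fold enrichments were 5.12, 10.2 and 10.5, against 11.7 in SCD. HSP90AB1 had a median −log10 q of 105, against 27.4 in SCD, and was the only one of these 4 genes with a mutant peak. SCARB1 was second of the 24 by median fold enrichment, after NME1-NME2.

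No lipid gene held a peak of either mutant. The counts were 0 of the 103 3A peaks and 0 of the 88 7A peaks, in lists in which 0.359% and 0.269% of protein-coding genes had a peak. Of the 28 WT peaks, 0 were met by a 3A or 7A peak. As 25 of the 28 lie in FASN, SCD and SCARB1, they are not independent, and no upper limit is given for this 0. Over all WT peaks, 3.54% were met by a 3A peak and 1.40% by a 7A peak. Since overlap between alleles entered the choice of genes, nothing is read from these shares. The nearest 3A peaks were 165 kb from SCD, 419 kb from SCARB1 and 568 kb from FASN, and the nearest 7A peaks were 102 kb from SCARB1, 730 kb from FASN and 58.5 Mb from SCD. When the WT list was shortened to its 103 or 88 peaks of highest −log10 q, as many as each mutant list has, a single lipid peak was left in both cases, that at the start of SCD. The mutants' lack of peaks in these genes and the short length of their lists cannot be told apart. Of the 24 genes with 6 or more WT peaks, 18, these 3 lipid genes among them, had no mutant peak.

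The rest of lipid metabolism was read from 5 lists with 125 genes in all, of which 21 held a WT peak and none a 3A or 7A peak. Without the 8 genes above it was 16 of 117 (13.7%), against 6.78% of all protein-coding genes. Expressed and unexpressed genes are mixed in both, and expression was not measured here. In fatty acid synthesis 4 of the other 29 genes held a peak, in cholesterol synthesis 5 of the other 21, in SREBP regulation 0 of the other 12, in lipid uptake and transport 2 of the other 27 and in glycerolipid synthesis 5 of 28. Fewer peaks lay in each: 14 of these 16 genes had a single peak on their strand, FABP5 3 and DHCR7 2. Their 19 peaks had a median fold enrichment of 8.60 and a median −log10 q of 14.0.

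**Figure D4:**
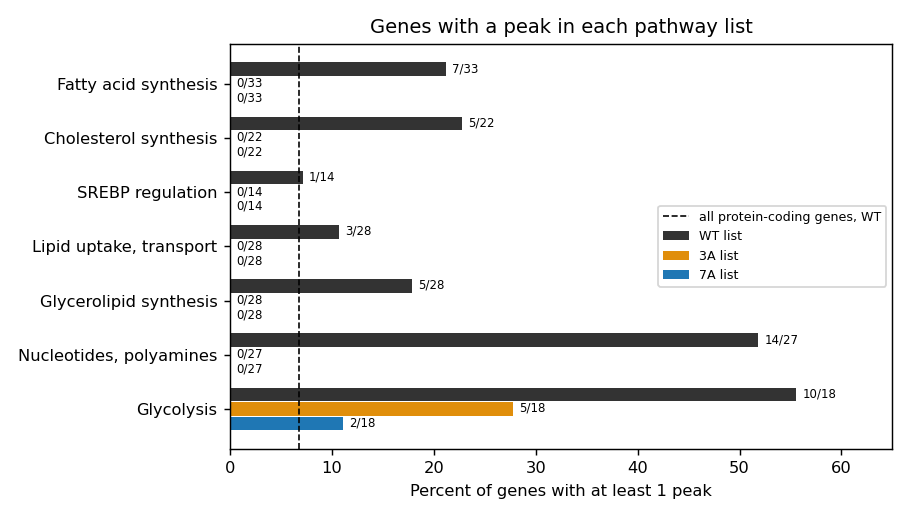
Percent of genes with at least 1 peak (horizontal axis) in 5 lists of lipid metabolism and in 2 other metabolic lists, for WT (black), 3A (orange) and 7A (blue); numbers beside the bars are genes with a peak over genes in the list, and the dashed line marks the 6.78% of all protein-coding genes with a WT peak. The lipid lists have WT bars of 1 to 7 genes and no mutant bar. Where a list holds any of the 8 genes chosen with their peaks in view, its bar counts them. Without them, fatty acid synthesis has 4 of 29 genes with a WT peak and SREBP regulation 0 of 12.

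In these other lipid genes, 12 of 19 summits (63.2%), in 11 of the 16 genes, lay within 500 bp of the start. Of all WT summits in protein-coding genes, 43.1% did. Since 14 of the 16 genes had a single peak on their strand, they are not a matched reference for FASN, and the difference was not tested. In cholesterol synthesis such start summits lay in SQLE, squalene epoxidase (fold enrichment 9.37, 114 bp), and LSS, lanosterol synthase (4.77, 271 bp). DHCR7, an enzyme of the last steps to cholesterol, had its peaks at 4988 and 13303 bp instead, with fold enrichments of 18.0 and 8.58. EBP, a sterol isomerase, had one at 2017 bp (6.22). In fatty acid synthesis, start peaks lay in MCAT, of the mitochondrial pathway (9.70), HACD3, of chain elongation (7.51), and FADS1, a desaturase (4.40). The FADS1 peak also lies inside FADS2, a neighbouring desaturase on the other strand. FADS2 had its own peak 12282 bp from its start, with a fold enrichment of 8.60 and the highest −log10 q of these 16 genes, 50.2.

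Uptake and membrane lipid genes were also met mostly near their starts. FABP5, which carries fatty acids inside the cell, had peaks at 30, 344 and 928 bp with fold enrichments of 9.33, 5.38 and 9.37, and SLC27A4, a fatty acid transport protein, had one at 210 bp (10.3). The FABP5 peaks also lie inside the long non-coding RNA gene LNMICC, so their gene of origin is uncertain. PTDSS1, a phosphatidylserine synthase, had the highest fold enrichment of the 16 genes, 19.2 at 154 bp, and a −log10 q of 31.3. DGAT2, of triglyceride synthesis, had 8.53 at 223 bp and CHPT1, of phosphatidylcholine synthesis, 7.21 at 169 bp. PEMT, the phosphatidylethanolamine methyltransferase, had 13.5 at 559 bp, just outside the 500 bp window, and CEPT1, a choline and ethanolamine phosphotransferase, 5.54 at 8262 bp. Of 10 marker genes of adipocytes and hepatocytes, cell types of high lipid synthesis, 0 held a WT peak, and with 6.78% of all protein-coding genes holding one, nothing is read from this.

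Among other metabolic genes, 10 of 18 glycolysis genes held 49 WT peaks and 14 of 27 genes of nucleotide and polyamine synthesis held 29. Of all protein-coding genes, 6.78% held a WT peak. Mutant peaks met 10 of the 49 glycolysis peaks for 3A and 2 for 7A, and none of the 29 nucleotide peaks. Over all WT peaks these shares were 3.54% for 3A and 1.40% for 7A. With shares this low, nothing is read from the lack of met peaks in the nucleotide or lipid genes. These differences were not tested, since the glycolysis and lipid genes were chosen with their peaks in view.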

How the data were processed

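eCLIP libraries of U2OS cells (12 precipitated, 6 input) fell into 12 groups by their titles. The build hg38 and the tools cutadapt, BWA and MACS2 come from the submitters' processing notes. Their settings, the control for peak calling and any pooling of replicates are not stated there or in the labels. Per peak, the 3 deposited narrowPeak lists give the authors' fold enrichment (a ratio over an unnamed control), a −log10 q and the summit offset. Depth per sample is unknown, so values were compared only within a list.

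Coordinates were turned to 1-based positions. Gene spans came from RefSeq's gene table for GRCh38.p14 (hg38), which has no exons. Strands came from the RefSeq promoter table or, for FASN, SCARB1 and other genes outside it, from the peaks. All 125 names of the 5 lipid lists matched. Position along genes for the whole list used the shortest protein-coding gene on the strand of the peak. Promoter windows of neighbouring starts overlap. The 8 genes and all lists were chosen with earlier results of these data known. Named genes were the 8, each lipid list gene with a peak, and genes with the number of peaks of FASN or SCD (within 1 of it where fewer than 3 had it). NME1-NME2, EEF2, ACTB and the motifs searched were added after values were seen. Some list genes are counted but not reported by name here. No test was run, and overlap counting was tested on simulated peaks. Alternatives were other overlaps, thresholds, spans, strand, list length and rank measure. Computations used Python 3.11.15, pandas 2.3.3 and NumPy 2.4.6.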

Additional observations from a re-analysis of the deposited data

How the results depend on the processing

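Of 99 alternative values of 16 results, 90 stayed within 1.5 times the reported value, of which 32 are counts of 0 that the setting could not raise and that show no stability. Placing the summit or at least 50% of the peak in the gene, a −log10 q of at least 5 or spans extended by 500 bp left the lipid genes' 28 WT peaks in 5 genes. Requiring the gene's strand removed none of the 11 peaks whose gene has a strand in the promoter table, and could not remove the other 17, in FASN and SCARB1, whose strand was read from the peaks. Extension added TECR to the 21 list genes, and the −log10 q minimum took LSS and CEPT1 from them. Joining peaks at most 200 bp apart, chosen after seeing the data, left 24 regions. Keeping fold enrichments at or above the list median left 13 peaks in 3 of the 8 genes (2 in FASN, 0 in ACLY and SREBF1) and 13 list genes. The WT list cut to the length of the 3A or 7A list left 1 peak each. The median rank of the 28 peaks was 1170 by fold enrichment and 560.5 by −log10 q, so their standing in the list depends on the measure. No overlap rule gave a shared peak. The widest allowed a gap of 100 bp, and the mutant peak nearest to any of the 5 genes lay 102 kb away. None of these rules could therefore change the 0, which shows no stability. No paired analysis was possible because the lists hold no values of single replicates, so none could be left out either. Sequencing depth is not known, and the short mutant lists limit each comparison with them.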

Other observations

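Fold enrichment takes repeated values in the WT list. The SQLE peak and the third FABP5 peak, on the same chromosome but in different genes, both carried 9.37 as fold enrichment and 17.2 as −log10 q. In all, 916 of the 2149 WT peaks (42.6%) had the same pair of values as another peak, and 9 of the 28 peaks of the 8 lipid genes did. Ranks among such peaks are ties.

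Several lipid peaks came in close neighbours. The edges were 74 and 82 bp apart among the last 3 FASN peaks, 66 bp apart in the last pair of SCARB1 and 174 bp apart in a pair of SCD peaks, so counts of peaks per gene depend on how stretches were divided by the caller.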
